A study of Mus musculus with 3 samples.

Results

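SWI/SNF complexes are chromatin remodellers, and 10 genes for their subunits were followed here, of 55536 genes in the deposited gene tables and 22028 annotated as protein-coding. The rule for members was a list of gene symbols: the ATPases Smarca4 and Smarca2, the core subunits Smarcb1, Smarcc1, Smarcc2, Smarcd1 and Smarcd2, and the AT-rich interaction domain subunits Arid1a, Arid1b and Arid2. A SWI/SNF complex uses the energy of ATP to slide or evict nucleosomes, and each assembly holds either SMARCA4 (BRG1) or SMARCA2 (BRM) as its motor. SMARCC1, SMARCC2 and a SMARCD subunit form a scaffold around SMARCB1, while ARID1A or ARID1B marks the BAF form and ARID2 the PBAF form. In macrophages these complexes are best known for opening the promoters and enhancers of inflammatory genes that toll-like receptor signals turn on later.

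The RNA came from the chromatin fraction of primary bone-marrow-derived macrophages of C57BL/6J mice, sequenced as total RNA after removal of ribosomal RNA. There was 1 condition with 3 libraries, labelled as biological replicates 1, 2 and 3. The cells had been given lipid A, the toll-like receptor 4 agonist of lipopolysaccharide, at 100 ng/ml for 12 h. They were then kept without it for 12 h and given 100 ng/ml again for 10 min before harvest. Libraries started from 1 µg of RNA in replicate 1, 250 ng in replicate 2 and 500 ng in replicate 3, and all 3 carry the same donor identifier. Age and sex were not collected. No untreated sample is analysed here, so the levels below describe restimulated cells and give no response to lipid A. Because 3 libraries of 1 group are all there is, an SD measures only the spread between these libraries, which may be technical in part.

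Library totals were 13538605, 19949204 and 18224466 counts on genes for replicates 1, 2 and 3. Of the macrophage markers 8 of 8 were detected (1 TPM or more in every library), with a summed level of 716 to 975 TPM over the libraries (TPM, a relative transcript level corrected for transcript length and library size). The highest were Adgre1 at 303 ± 76.5 TPM (SD, n = 3), Lyz2 at 143 ± 39.0 and Csf1r at 139 ± 11.5. Cd14, the lipopolysaccharide co-receptor gene, was lowest at 6.81, 19.6 and 20.4 TPM and was the 1 marker called as varying between libraries (edgeR adjusted p = 0.0194), with replicate 1 low. Markers of T cells (0 of 4), neutrophils (0 of 4) and fibroblasts (0 of 3) were not detected in the gene tables, with summed levels of 0 to 1.14 TPM. In the second deposited set of tables, made straight from the reads, 1 T cell marker and 1 neutrophil marker passed, Cd8a at 2.55 ± 0.499 TPM (0.08 in the gene tables) and Mpo at 1.90 ± 0.291 TPM (0.0467 in the gene tables). Cd3e, Cd3g and Elane were listed at 0 in every gene table. In the second set Cd3g had a mean of 1.03 ± 0.270 TPM and Col1a1, a fibroblast marker, 1.30 ± 0.340 TPM. Neither of them reached 1 TPM in every library there. In bulk RNA, fewer cells of a type and less RNA per cell cannot be told apart.

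The 2 exons of Smarca2 that the transcript results turn on are shown first, 5′ to 3′, with exon bases in capitals and 10 bases of each neighbouring exon in lower case. They lie side by side on the plus strand of mm10 and are coding exons 29 and 30 of the 34 exons of transcript Smarca2-209. The first, at chr19:26759878-26759931, is a cassette exon of 54 bases, equal to 18 whole codons. The second, at chr19:26770938-26771043, has 106 bases, which leaves a remainder of 1 on division by 3. It codes for part of the bromodomain, the module that binds acetylated histones.
Smarca2 cassette exon: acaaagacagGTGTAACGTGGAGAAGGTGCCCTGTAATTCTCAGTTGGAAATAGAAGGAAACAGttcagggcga
Smarca2 exon absent from Smarca2-202: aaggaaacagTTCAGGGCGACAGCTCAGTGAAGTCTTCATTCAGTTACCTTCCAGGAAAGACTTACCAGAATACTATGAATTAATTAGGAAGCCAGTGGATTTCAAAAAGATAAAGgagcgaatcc

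All 10 members were detected, meaning 1 TPM or more in each of the 3 libraries. Of all protein-coding genes, 45.6% passed the same rule. The lowest value of any member in any library was 11.1 TPM and the highest was 65.4 TPM, so 10 of 10 members also passed at 5 TPM and at 10 TPM, against 32.0% and 23.2% of protein-coding genes. The level of 10 TPM was not a planned threshold and lies just under the lowest member value, so this contrast is a description only. Behind these levels lay between 229 and 4261 expected counts per member and library. The median over members was 28.4 TPM, and the median over the 10050 detected protein-coding genes was 12.1 TPM (interquartile range 5.09 to 28.6). By mean level, Smarcc2 stood highest at 64.4 TPM, followed by Arid1a, Smarca4, Arid1b, Smarca2, Arid2, Smarcd2, Smarcc1, Smarcb1 and Smarcd1. The libraries of Smarcc2, Arid1a and Smarca4 did not overlap with those of the gene next in this order. Arid1b, Smarca2 and Arid2 overlapped with each other, as did Smarcc1 with Smarcb1, and neither order held in every library. The ranges of Smarcd2 and Smarcc1 also overlapped, but Smarcd2 was the higher of them within 3 of 3 libraries. Arid2 lay apart from Smarcd2, and Smarcb1 from Smarcd1.

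**Figure D1:**
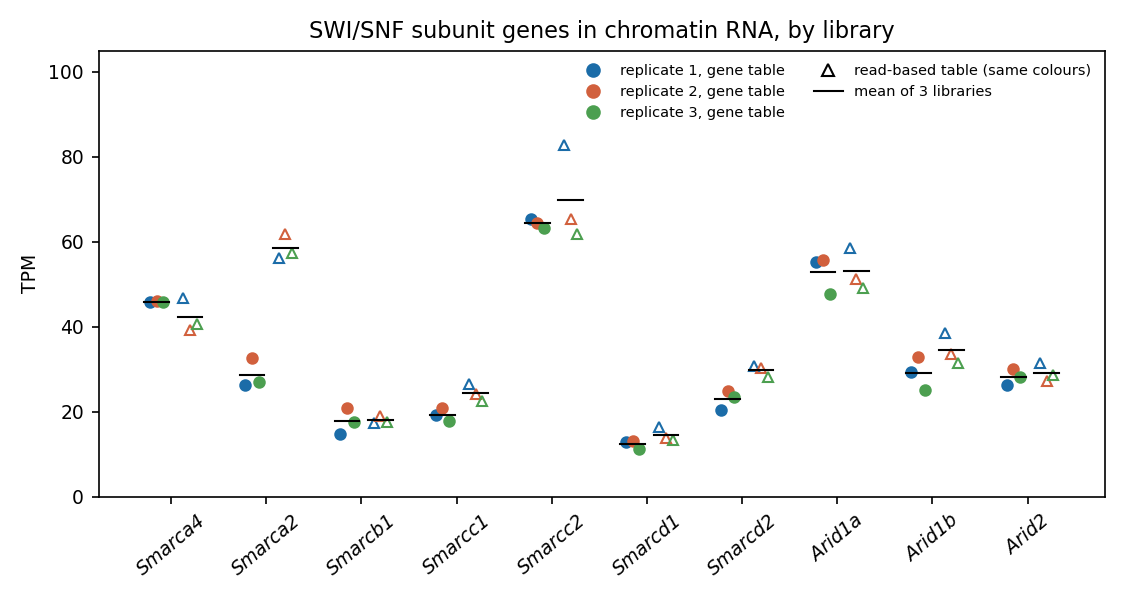
Level of each SWI/SNF subunit gene in TPM (vertical axis) in each library. Filled circles are the gene tables, open triangles are the read-based tables in the same library colours, and bars are means of 3 libraries. Smarca2 is the gene whose 2 sets of values lie farthest apart, with means of 28.7 and 58.5 TPM.

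Smarca4 codes for the ATPase BRG1 and lies on the plus strand at chr9:21616169-21704230 (ENSMUSG00000032187.16). Its level was 45.9 TPM in replicate 1, 46.0 in replicate 2 and 45.7 in replicate 3, a mean of 45.9 ± 0.126 (SD, n = 3). In the gene tables the highest library exceeded the lowest by a factor of 1.01, the smallest ratio among the members. In the second deposited set, made straight from the reads, this factor was 1.19 and not the smallest. The annotation gives the gene 4 transcripts, and 4 of them are coding, so 100% of its TPM was assigned to coding models. Smarca4-204 held 51.3% ± 9.25 (SD, n = 3) of the gene's TPM and Smarca4-202 held 30.7% ± 4.50. Smarca4-204 was at 26.1 and 26.0 TPM in replicates 1 and 2 and at 18.6 TPM in replicate 3, where Smarca4-202 was at its highest, 16.4 TPM. In the gene tables the division between the 2 transcripts thus varied more between libraries than the gene total did. In the second deposited set Smarca4-204 was at 27.4, 24.9 and 21.4 TPM and Smarca4-202 at 11.2, 10.5 and 10.9 TPM. The gene total there was 46.8, 39.3 and 40.6 TPM, so it varied more than Smarca4-202 did.

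Smarca2, the gene for the alternative ATPase BRM, lies on the plus strand at chr19:26605050-26778322 (ENSMUSG00000024921.17). It stood at 26.3 TPM in replicate 1, 32.6 in replicate 2 and 27.0 in replicate 3 (mean 28.7 ± 3.47, SD, n = 3). Within each library Smarca4 was higher than Smarca2, by 0.80, 0.49 and 0.76 on the log2(TPM + 0.1) scale. The mean difference was 0.68 ± 0.17 (SD, n = 3), or 1.61-fold, in 3 of 3 libraries. Smarca4 held 61.6% ± 2.75 of the summed TPM of both ATPase genes. With 3 libraries the smallest p that the exact two-sided sign-flip test can give is 0.25, which is what it gave here (0.333 after Benjamini-Hochberg adjustment over the 8 pairs compared).

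The order of the ATPase genes turned over in the second set of deposited tables, which were made straight from the reads and are called read-based here. There Smarca2 stood at 56.2, 61.8 and 57.5 TPM and Smarca4 at 46.8, 39.3 and 40.6 TPM, so Smarca2 was the higher gene in 3 of 3 libraries. The difference was -0.47 ± 0.20 on the log2 scale (Smarca4 minus Smarca2, exact p = 0.25), and the Smarca4 share was 41.9%. The read-based value of Smarca2 was 2.05-fold its gene-table value, a ratio at percentile 84.5 among detected protein-coding genes, whose median ratio was 1.30. For Smarca4 the ratio was 0.919. Smarca2 has 46 annotated transcripts, of which 29 are shorter than 1000 bases, a length chosen after the values were seen. Those short models summed to 5.19 TPM in the gene-table set and to 31.9 TPM in the read-based set.

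Coding transcripts alone gave a wider gap between the ATPases. All 4 annotated Smarca4 transcripts are coding, against 27 of 46 for Smarca2. The restriction could therefore lower only Smarca2, so the direction of this change was fixed by the annotation and only its size was measured. The coding level was 45.9 TPM for Smarca4 and 8.82 ± 0.183 TPM (SD, n = 3) for Smarca2, a log2 difference of 2.37 ± 0.03, or 5.15-fold. Coding models with at least 70% of a gene's longest coding sequence, called near-full here, stood at 45.9 TPM for Smarca4 and 6.40 ± 0.876 TPM for Smarca2. On this measure the difference was 2.83 in the gene-table set and 3.17 in the read-based set, with Smarca4 higher in 3 of 3 libraries of each. All 4 Smarca4 models are near-full, against 3 for Smarca2, so this restriction too could lower only Smarca2. The direction between the ATPase genes therefore differed with the transcripts counted and, for all transcripts together, with the table used.

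Only 31.1% ± 3.94 (SD, n = 3) of the Smarca2 TPM lay on coding transcripts. Transcripts annotated as targets of nonsense-mediated decay, the pathway that destroys RNA with an early stop codon, held 33.2% ± 3.16, retained-intron transcripts 21.4% ± 4.59 and processed transcripts 14.4% ± 3.45. Processed transcripts held 30.6% in the read-based tables and 2.87% of expected counts, and decay-annotated transcripts 23.4% and 47.7%. Retained-intron transcripts held 11.0% of expected counts. The leading transcript was the decay-annotated Smarca2-202, at 6.89 TPM in replicate 1, 10.3 in replicate 2 and 6.93 in replicate 3. It held 27.8% ± 3.34 of the gene's TPM and was the leading transcript in 3 of 3 libraries and in the read-based mean, where it stood at 9.37 TPM. Smarca2-202 lacks the 106-base bromodomain exon printed above. Of the TPM of transcripts that span the position, 48.2% ± 6.19 (SD, n = 3) was on models that include this exon, with 53.7%, 41.5% and 49.3% in replicates 1, 2 and 3. The read-based share was higher, 71.3% ± 2.85. The 54-base cassette exon was included in 64.3% ± 4.29 of the spanning TPM in the gene-table set and in 48.9% ± 0.908 in the read-based set. Its inclusion was 60.1%, 64.2% and 68.7% in replicates 1, 2 and 3. Most of that included TPM was on Smarca2-202 itself, beside 2.89, 2.10 and 5.04 TPM on the coding Smarca2-209. The shares of the 2 exons therefore rest largely on the same model and are not independent. These shares follow from how each tool divided reads among models and are not junction counts.

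Smarcb1 codes for the SNF5 subunit, known as a tumour suppressor, and lies on the minus strand at chr10:75896769-75921617 (ENSMUSG00000000902.13). Its level was 14.8 TPM in replicate 1, 20.9 in replicate 2 and 17.7 in replicate 3 (mean 17.8 ± 3.07, SD, n = 3). In the gene tables its ratio of highest to lowest library, 1.41, was the widest among the members. In the read-based tables its ratio was 1.09, the smallest among the members, and Smarcc2 had the widest at 1.34. Smarca4 exceeded Smarcb1 by 1.37 ± 0.25 on the log2 scale, or 2.59-fold, in 3 of 3 libraries (exact two-sided sign-flip p = 0.25, adjusted 0.333). On coding transcripts the difference was 2.55 ± 0.46, or 5.85-fold, a restriction that could only widen the gap because every Smarca4 model is coding. Coding transcripts of Smarcb1 made up 44.4% ± 7.02 of its TPM, and their level was 5.39 TPM in replicate 1 and 9.86 and 8.78 TPM in replicates 2 and 3. The retained-intron model Smarcb1-205 is 7441 bases long and stood at 6.08 ± 0.73 TPM. It holds 2 whole coding introns, of 1455 and 3407 bases. By expected counts, which are not divided by length, retained-intron models held 82.9% ± 3.54 of Smarcb1, the highest share among the members.

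Smarcc2, a scaffold subunit (BAF170), lies on the plus strand at chr10:128459248-128490482 (ENSMUSG00000025369.15). It stood at 65.4, 64.4 and 63.4 TPM in replicates 1, 2 and 3 (mean 64.4 ± 1.03, SD, n = 3). Its paralogue Smarcc1 (BAF155), on the plus strand at chr9:110117708-110240178 (ENSMUSG00000032481.17), stood at 19.2, 20.9 and 17.8 TPM (mean 19.3 ± 1.53). Smarcc2 was 3.33-fold higher than Smarcc1 in 3 of 3 libraries, a log2 difference of -1.74 ± 0.10 for Smarcc1 minus Smarcc2 (exact two-sided sign-flip p = 0.25, adjusted 0.333). This was the largest of the 8 differences between pairs of members on the gene-table TPM. Smarcc1 held 23.0% ± 1.30 of the summed TPM of both genes, 26.1% in the read-based set and 12.9% on coding transcripts. On coding transcripts Smarcc2 was 6.84-fold higher than Smarcc1. Near-full coding transcripts stood at 51.5 ± 1.60 TPM for Smarcc2 and at 4.77 ± 1.82 TPM for Smarcc1. Smarcc1 minus Smarcb1 was 0.13 ± 0.21 on the log2 scale, with Smarcc1 higher in 2 of 3 libraries (exact p = 0.5, adjusted 0.571), a difference smaller than its spread. Its direction turned with the measure, to 0.44 ± 0.14 in the read-based tables (Smarcc1 higher in 3 of 3 libraries) and to -0.76 ± 0.19 on near-full coding models (lower in 3 of 3). Smarcc1 shares 123 annotated bases with Dhx30, a helicase gene on the opposite strand at 44.0 ± 6.83 TPM. The use of strand was not stated in any source used here, so reads in the overlap could belong to either gene.

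Smarcd1 (BAF60A) and Smarcd2 (BAF60B) are alternative scaffold subunits that contact transcription factors. Smarcd1, on the plus strand at chr15:99702129-99713991 (ENSMUSG00000023018.5), was the lowest member, with 12.8, 13.1 and 11.1 TPM in replicates 1, 2 and 3 (mean 12.3 ± 1.04, SD, n = 3). Smarcd2, on the minus strand at chr11:106263179-106272972 (ENSMUSG00000078619.10), stood at 20.5, 25.0 and 23.4 TPM (mean 22.9 ± 2.28). Smarcd2 was 1.85-fold higher in 3 of 3 libraries, a log2 difference of -0.89 ± 0.20 for Smarcd1 minus Smarcd2 (exact p = 0.25, adjusted 0.333). Coding transcripts gave -0.94 ± 0.16 and the read-based tables -1.03 ± 0.12. The family's remaining gene, Smarcd3, known from heart and muscle, was at 1.14, 3.40 and 2.25 TPM. In the read-based tables Smarcd3 was higher, at 8.42 ± 2.90 TPM. Of the TPM of the 3 Smarcd genes, Smarcd2 held 61.1% ± 2.19 and Smarcd1 33.0% ± 3.71. The read-based shares were 56.4% ± 2.48 for Smarcd2 and 27.6% ± 3.26 for Smarcd1. Smarcd1 overlaps 2 annotated genes with counts on the opposite strand, Gm34939 at 2.14 ± 0.0889 TPM and Gm17241 at 6.16 ± 5.35 TPM.

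Arid1a, the gene for the DNA-binding BAF subunit BAF250A, lies on the minus strand at chr4:133679008-133756769 (ENSMUSG00000007880.16). It stood at 55.2 TPM in replicate 1, 55.7 in replicate 2 and 47.7 in replicate 3 (mean 52.9 ± 4.49, SD, n = 3). Its paralogue Arid1b, on the plus strand at chr17:4994332-5347656 (ENSMUSG00000069729.14), stood at 29.3, 32.9 and 25.2 TPM (mean 29.1 ± 3.86). Arid2, the PBAF subunit BAF200, on the plus strand at chr15:96287518-96404992 (ENSMUSG00000033237.19), stood at 26.4, 30.1 and 28.1 TPM (mean 28.2 ± 1.83). Arid1a was above each of the others in 3 of 3 libraries, 1.82-fold above Arid1b (log2 difference 0.86 ± 0.09) and 1.87-fold above Arid2 (0.90 ± 0.15), each with an exact p of 0.25 and an adjusted p of 0.333. On coding transcripts Arid1a was 3.08-fold above Arid1b (1.63 ± 0.13). Of the Arid1a coding level, 7.73 ± 0.62 TPM was on Arid1a-204, a model of 1262 bases with 422 coding bases. Near-full coding models gave 2.36-fold for Arid1a over Arid1b (1.24 ± 0.09). In the read-based tables the fold was 1.53 for all transcripts (0.62 ± 0.02) and 1.98 on near-full coding models. Arid1b and Arid2 were not separated, with a log2 difference of 0.04 ± 0.17 and Arid1b higher in 2 of 3 libraries (exact p = 1). The order of that pair depended on what was counted. On coding transcripts Arid2 was above Arid1b in 3 of 3 libraries, 20.5 ± 1.51 against 10.6 ± 1.36 TPM, a log2 difference of -0.95 ± 0.08 (Arid1b minus Arid2). Of the Arid2 coding level, 8.36 ± 1.23 TPM was on Arid2-202, a model of 809 bases with 435 coding bases. Near-full coding models gave -0.20 ± 0.16. In the read-based tables Arid1b was the higher gene in 3 of 3 libraries, by 0.25 ± 0.10 for all transcripts, and in 2 of 3 libraries on near-full coding models (0.16 ± 0.23). By shares of the TPM of the 3 genes, Arid1a held 48.0% ± 1.57, Arid1b 26.4% ± 1.40 and Arid2 25.7% ± 2.04.

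**Figure D2:**
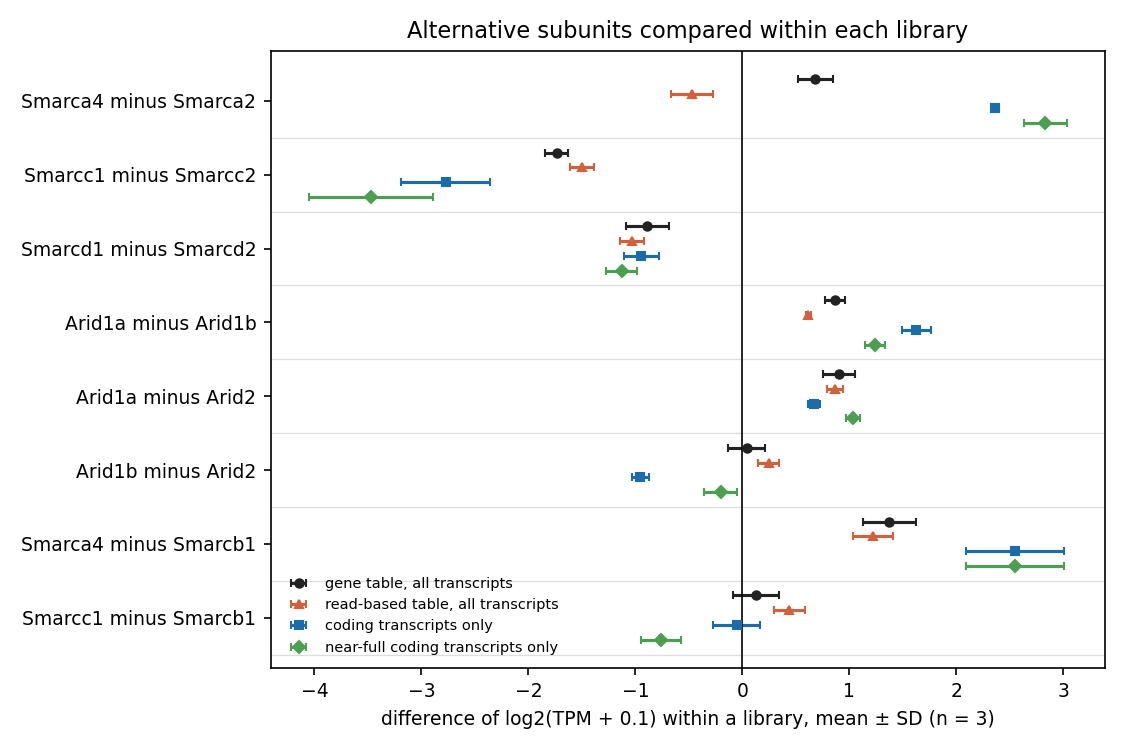
Difference of log2(TPM + 0.1) between the genes of each pair within a library (horizontal axis, first gene minus second), as mean ± SD of 3 libraries, for 4 measures named in the key. Smarca4 minus Smarca2 is 0.68 in the gene tables, -0.47 in the read-based tables and 2.37 on coding transcripts, while Smarcc1 minus Smarcc2 and Smarcd1 minus Smarcd2 stay below 0 on all 4 measures.

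RNA bound to chromatin includes transcripts still being made and spliced, and the annotation holds retained-intron models for 9 of the 10 members. Over all members, 32.2% ± 2.25 (SD, n = 3) of the TPM was on such models, with 34.5%, 32.3% and 30.0% in replicates 1, 2 and 3. The read-based tables gave 31.9%, and expected counts, which are not divided by length, gave 14.1%. Per gene, the retained-intron share of TPM was 63.3% ± 6.12 for Arid1b, 60.5% ± 8.65 for Smarcc1, 52.8% ± 7.21 for Smarcb1 and 51.3% ± 7.54 for Smarcd1. It was 49.4% ± 4.76 for Smarcd2, 37.9% ± 5.27 for Arid1a and 27.3% ± 1.34 for Arid2. It was lowest for Smarca2 at 21.4% and Smarcc2 at 19.6% ± 1.66. The median over these 9 members was 49.4%, beside a median of 45.4% over the 6342 detected protein-coding genes with such a model, and 5 of 9 members were above that median. By expected counts the medians were 14.7% and 29.0%, with 2 of 9 members above. The order of the members changed too: Arid1b had the highest share of TPM but 14.7% ± 3.37 of counts. In the read-based tables Smarcd2 (61.8%) and Smarcb1 (61.1%) stood above Arid1b (55.6%).

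By mean TPM in the gene-table set, a retained-intron model was the leading transcript of 2 members. Arid1b-205, of 1083 bases, stood at 17.0, 15.7 and 10.8 TPM and held 49.5% ± 7.83 (SD, n = 3) of the Arid1b TPM, while the full-length Arid1b-207 stood at 6.93 ± 1.65 TPM. In expected counts Arid1b-207 led, with 476, 985 and 867 counts beside 199, 220 and 148 for Arid1b-205. Smarcc1-208, of 3078 bases, stood at 9.01, 5.54 and 6.81 TPM and held 37.3% ± 10.2 of the Smarcc1 TPM, above Smarcc1-201, the full-length coding model, at 2.59 ± 0.77 TPM. The shorter coding model Smarcc1-203 was at 2.90 ± 0.39 TPM. In expected counts Smarcc1-208 had 343, 265 and 317, beside 138, 316 and 221 for Smarcc1-201, which was the higher of them in replicate 2. By the same measure the leading transcript was coding for 7 members, and for Smarca2 it was the decay-annotated one. The same transcript led in all 3 libraries for 7 members, and 5 members had the same leader in the read-based set. There the retained-intron models Smarcb1-205, Smarcd1-207 and Smarcd2-204 led in place of coding models. For Smarcc2 and Arid2 the leader changed from one coding model to another. Smarcb1-205 and Smarcd1-207 also led in replicate 1 of the gene-table set. The retained-intron model of highest level in a single member after Arid1b-205 was Smarcc2-204, at 11.6, 13.0 and 13.2 TPM (mean 12.6 ± 0.888), close to Arid1a-206 at 12.5 ± 2.54 TPM.

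**Figure D3:**
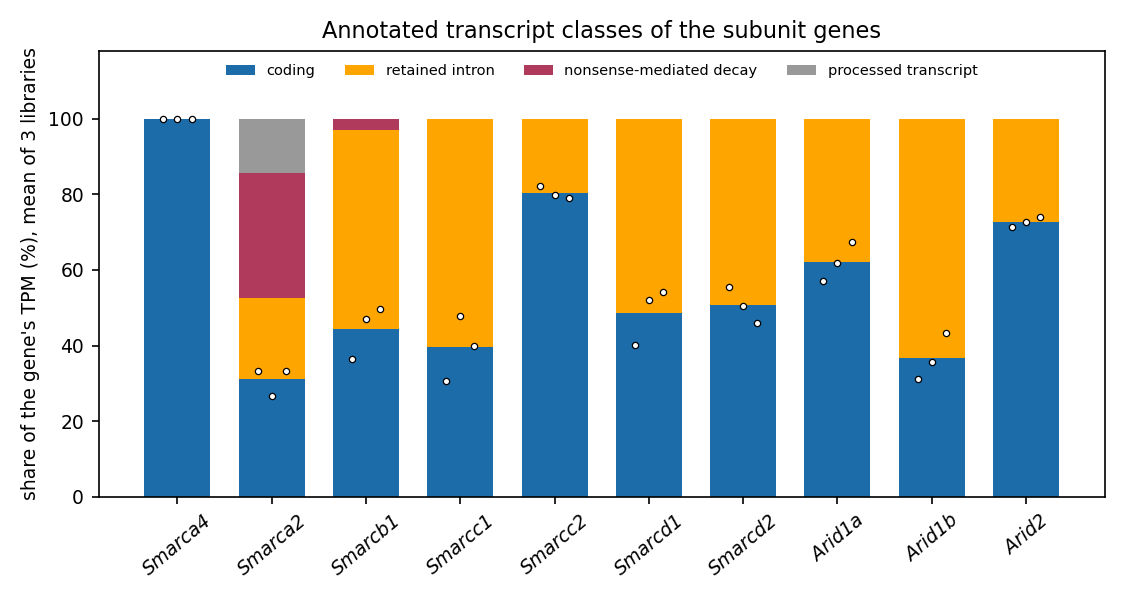
Share of each gene's TPM (vertical axis, percent, mean of 3 libraries) on each annotated transcript class, with small white points for the coding share in each library. Smarca4 is at 100% coding, Smarca2 carries a decay-annotated share of 33.2%, and Arid1b has the highest retained-intron share of gene-table TPM, 63.3%.

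Of the 104 transcripts annotated to the members, 43 stood at 1 TPM or more in all 3 libraries, and of the 23 retained-intron models 19 had a mean of 1 TPM or more. Of those 19, 7 hold a complete intron of a coding transcript, in 5 members, and no such intron was found in the others. The 8 distinct whole introns were 75 to 3407 bases long, all 8 began with GT and ended with AG, and 7 of 8 held a stop codon in the reading frame that enters from the upstream exon. The 4 introns below are examples of short introns held whole by Smarcc2, Smarcd2 and Arid1a models, 5′ to 3′ on the gene's strand, with the splice site dinucleotides in capitals. In Smarcc2-204 the intron of 273 bases lies at chr10:128474410-128474682, and its first in-frame stop begins at base 13. In Smarcd2-207 and Smarcd2-202 the intron of 75 bases lies at chr11:106264120-106264194 on the minus strand, with a first in-frame stop at base 34. The intron of 124 bases in Smarcd2-208, at chr11:106267014-106267137, is the one with no in-frame stop. In Arid1a-203 the intron of 254 bases lies at chr4:133695662-133695915 on the minus strand, with a first in-frame stop at base 48.
Smarcc2-204 intron: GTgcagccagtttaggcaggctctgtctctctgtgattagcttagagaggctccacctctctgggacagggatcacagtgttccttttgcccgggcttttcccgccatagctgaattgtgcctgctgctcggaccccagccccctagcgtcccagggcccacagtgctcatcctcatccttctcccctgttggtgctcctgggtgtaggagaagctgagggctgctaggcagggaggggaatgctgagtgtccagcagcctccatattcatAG
Smarcd2-207 intron: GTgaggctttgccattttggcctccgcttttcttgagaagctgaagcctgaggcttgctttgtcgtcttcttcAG
Smarcd2-208 intron: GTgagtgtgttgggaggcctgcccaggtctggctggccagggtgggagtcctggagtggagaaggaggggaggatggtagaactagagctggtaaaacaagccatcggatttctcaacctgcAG
Arid1a-203 intron: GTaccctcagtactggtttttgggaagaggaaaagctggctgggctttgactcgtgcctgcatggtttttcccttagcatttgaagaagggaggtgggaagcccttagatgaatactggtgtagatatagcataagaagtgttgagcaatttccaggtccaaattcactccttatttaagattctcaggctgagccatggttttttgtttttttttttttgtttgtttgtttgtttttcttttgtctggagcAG

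The model with the 75-base intron, Smarcd2-207, stood at 3.63, 5.67 and 4.48 TPM in replicates 1, 2 and 3, and the model with the 124-base intron, Smarcd2-208, at 2.03, 2.57 and 4.64 TPM. Both were below the coding Smarcd2-203, at 6.63, 7.85 and 7.35 TPM. Arid1a-203 was at 9.04, 8.28 and 5.78 TPM beside 19.1, 23.0 and 21.8 TPM for the coding Arid1a-205. In the Arid1a pair the retained-intron model was at its lowest in replicate 3, the library in which the whole gene was also lowest.

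Replicate 2 gave the highest TPM for 9 of 10 members and replicate 1 for Smarcc2. Replicate 2 was also the highest library for 53.3% of detected protein-coding genes. After TMM normalisation of the counts, which scales libraries on the bulk of genes, replicate 2 was highest for 5 members, replicate 3 for 4 and replicate 1 for 1. On that scale 31.4% of the protein-coding genes tested were highest in replicate 2, 34.6% in replicate 3 and 34.0% in replicate 1. The ratio of highest to lowest library in TPM had a median of 1.17 over the members and of 1.32 over detected protein-coding genes.

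No member was called as varying between libraries beyond genes of its level. An edgeR goodness-of-fit test of a model with 1 mean per gene called 166 of 14789 genes tested (1.12%) at a Benjamini-Hochberg adjusted p below 0.05, and 0 of 10 members. At an unadjusted p below 0.05 it called 899 genes (6.08%) and again 0 members. The smallest p among the members was 0.656, for Smarca2, with an edgeR adjusted p of 0.9997. DESeq2 marked 115 of 24516 genes as dispersion outliers, 0 of them members. At so small a share of genes, 0 of 10 members carries little information. The SD of log2 CPM over the libraries was lowest for Arid1a at 0.017 and Arid2 at 0.018, and highest for Smarca2 at 0.143. The median over members was 0.078 and the median over all genes tested 0.192, with 10 of 10 members below the latter. The members also had higher counts than most genes, and genes with more counts have a smaller counting error, so the 2 medians are not matched for level. The test says that more variation was not detectable with 3 libraries, not that none exists.

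**Figure D4:**
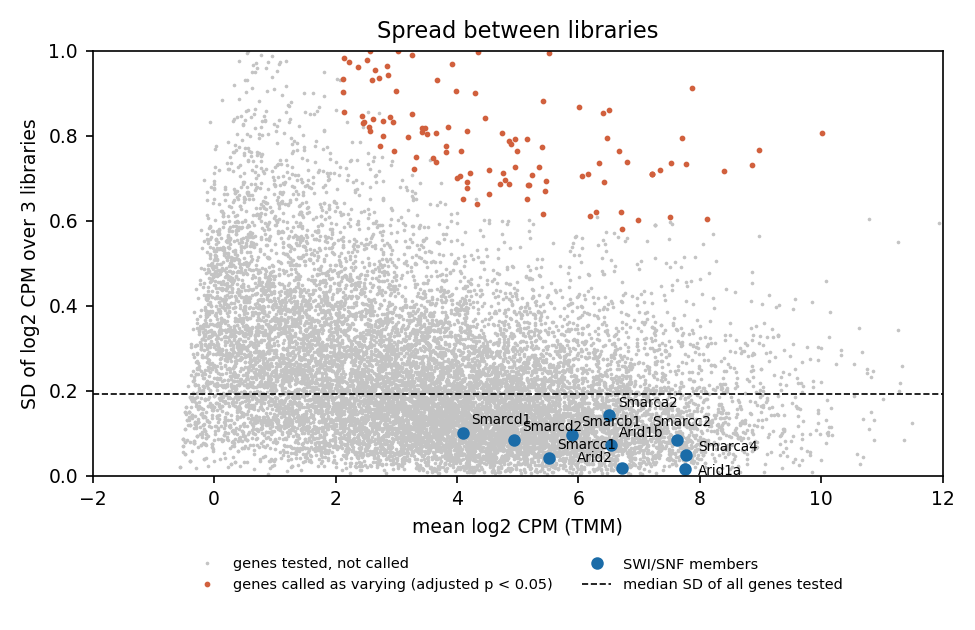
SD of log2 CPM over the 3 libraries (vertical axis) against mean log2 CPM (horizontal axis) for the genes tested, with the 10 members as large points and the 166 genes called as varying in orange. Another 69 genes lie outside the plotted range. The members lie between 0.017 and 0.143, under the dashed line at the median of all genes tested, 0.192.

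The other SWI/SNF subunits, a list of 19 genes, had 15 detected. The highest were Actb at 350 ± 121 TPM (SD, n = 3), which codes for the actin found in the complex and in the cytoskeleton, Brd7 at 52.9 ± 9.62 TPM, a bromodomain subunit of PBAF, and Dpf2 at 49.4 ± 4.14 TPM, a histone-reading subunit of BAF. The shared subunit Smarce1 was at 44.6 ± 4.40 TPM and Pbrm1, the polybromo subunit of PBAF, at 36.1 ± 1.83 TPM. Genes known from neuronal or muscle forms of the complex were not alike. Actl6b was listed at 0, Dpf3 was at 0.0467 TPM and Dpf1 at 0.19 TPM, while Smarcd3 at 2.26 ± 1.13 TPM and Ss18l1 at 4.07 ± 0.511 TPM were detected. None of the 16 genes tested in this list was called by the edgeR test. Actb was the 1 gene with an unadjusted p below 0.05 (0.0233, edgeR adjusted p = 0.584), at 345, 473 and 232 TPM. The median of the list was 11.8 TPM, beside 28.4 TPM for the 10 members.

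Genes of other remodeller families were measured in the same way. Of the ISWI list, whose complexes space nucleosomes, 9 of 11 genes were detected, led by Baz2b at 128 ± 5.66 TPM, Baz1b at 103 ± 10.4 and Baz2a at 67.0 ± 5.31, with Smarca1 listed at 0. Of the CHD and NuRD list 17 of 18 were detected, led by Chd2 at 131 ± 11.7 TPM, Chd9 at 117 ± 13.7 and Chd8 at 99.8 ± 10.3, with Chd5 lowest at 0.573 TPM. All 14 of the INO80 and SRCAP genes, which exchange histone variants, were detected, from Srcap at 85.4 ± 6.94, Ep400 at 54.7 ± 6.13 and Ino80 at 36.6 ± 3.18 down to Ino80c at 2.17 ± 0.237 TPM. Of other SNF2-like ATPases 10 of 10 were detected, from Atrx at 289 ± 39.0, Smarcad1 at 39.3 ± 2.29 and Hltf at 28.4 ± 0.869 down to Zranb3 at 2.28 ± 0.364 TPM. The list medians were 30.1 TPM for ISWI, 32.6 for CHD and NuRD, 17.1 for INO80 and SRCAP and 14.8 for other SNF2-like ATPases. The edgeR test called 0 genes in each of these 4 lists. At an unadjusted p below 0.05 it called 1 ISWI gene, Cecr2, and 0 in each of the others. The members' median lay within the range of these medians, and their lowest gene, Smarcd1 at 12.3 TPM, stood above the lowest gene of every other list. The contrast of lowest genes depends on how the lists were drawn. SWI/SNF genes at lower levels in the gene tables, such as Actl6b at 0, Dpf1 at 0.19 and Smarcd3 at 2.26 TPM, stand in the list of other subunits.

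**Figure D5:**
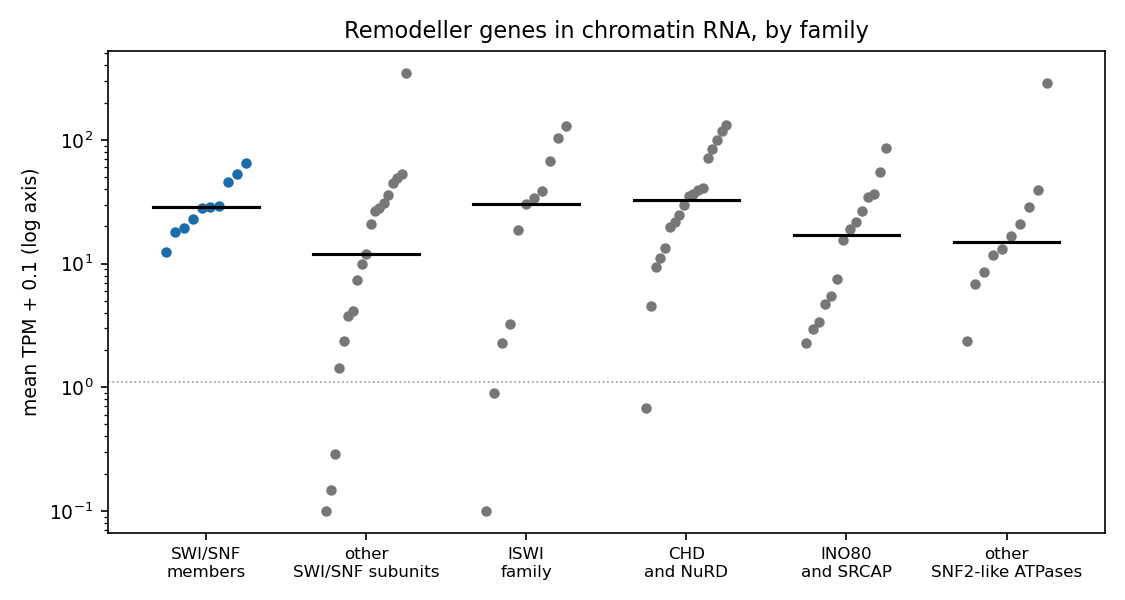
Mean TPM plus 0.1 on a log axis for each gene of 6 remodeller lists, with bars at the list medians and a dotted line at the detection level of 1 TPM. The 10 members lie between 12.3 and 64.4 TPM with a median of 28.4, while the other lists reach lower and higher.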

How the data were processed

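Total RNA of the chromatin fraction was measured in 3 libraries of 1 condition. Per the labels and accompanying notes, the authors deposited gene and transcript tables of expected counts and TPM from a transcriptome alignment (mm10, GENCODE M21), and further transcript tables, made directly from reads, with estimated counts and TPM. No aligner, quantifier, version or use of strand is given in the sources used here. Rows naming no gene (1.39%, 0.288% and 0.283% of counts) were left out.

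The read-based values were summed per gene. Members were compared within libraries as log2(TPM + 0.1), a scale that understates folds of low genes, with exact two-sided sign-flip tests over 3 libraries. Variation was tested on rounded expected counts with edgeR 4.0.16 (filterByExpr, TMM, trended dispersion, goodness of fit) and DESeq2 1.42.0 as an alternative, in R 4.3.3, and the edgeR script was tested on simulated data. Transcript classes and sequences came from GENCODE M21. Named genes were all members, the 3 highest and the lowest of each list, and any gene called. Smarcd3, Smarce1, Pbrm1, Dpf1, Dpf3, Ss18l1, Cecr2, Cd8a, Mpo, Cd3e, Cd3g, Col1a1 and the transcripts outside this rule were added after their values were seen. The members and lists were chosen with earlier results of these data known. Alternatives covered the table, length scaling, pseudocount, transcript class, threshold and left-out libraries; near-full coding transcripts and the Smarca2 exon shares were added after seeing the data. Some marker genes of other cell types are not reported here.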

Additional observations from a re-analysis of the deposited data

How the results depend on the processing

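All 10 members stayed detected, and 0 were called as varying, under every alternative run. Smarca4 minus Smarca2 reversed to -0.47 on the log2 scale in the read-based tables. Arid1b minus Arid2 reversed to -0.20 with CPM, which has no length scaling,, to -0.95 on coding transcripts and to -0.20 on near-full coding transcripts. Smarcc1 minus Smarcb1 reversed to -0.39, -0.052 and -0.76 in those same settings. Leaving out 1 library reversed 2 of 24 pair differences, both of Arid1b minus Arid2, which ran from -0.014 without replicate 1 and -0.0047 without replicate 2 to 0.14 without replicate 3. The Smarca4 share moved to 41.9% in the read-based tables, 83.9% on coding and 87.8% on near-full coding transcripts. In the same order the Smarcc1 share moved to 26.1%, 12.9% and 8.44% and the Arid1a share to 45.4%, 51.3% and 52.4%. The Smarcd1 share moved to 27.6% in the read-based tables. On coding and on near-full coding transcripts the Smarca4 share could only rise, because every Smarca4 model is coding and near-full. The retained-intron share moved to 14.1% by expected counts, which give short models less weight. It moved to 41.9% as a median over all 10 members, where Smarca4, which has no such model, counts as 0. For the other moves the cause was not tested. Another 96 recomputed values counted as unchanged. That meant the same sign for a pair difference, the same count of members, or a share moved by less than 1 SD. Folds still moved, to 5.85 for Smarca4 over Smarcb1 and 3.08 for Arid1a over Arid1b on coding transcripts. Some of the 96 could not have changed. A share recomputed without 1 of the 3 libraries cannot move by 1 SD. Detection at 0.5 or 5 TPM could not fail, because no member was below 11.1 TPM in any library. Over all genes the goodness-of-fit test called 166 genes, 221 with no filter on low counts, 273 from read-based counts, and 56, 76 and 58 without replicates 1, 2 and 3. No paired analysis was possible because there is 1 group. Each member had 229 counts or more in each library, while transcript shares rest on reads divided among overlapping models.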

Other observations

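Several member transcripts were present in one deposited set and at 0 in the other. Of the members' transcripts, 7 were listed at 0 TPM in the gene-table set and at a mean of 1 TPM or more in the read-based set, 2 of them of Smarca2. Smarcc2-206, a processed transcript of 735 bases, was at 0 and at 5.08 TPM, and Arid1b-204, a processed transcript of 418 bases, at 0 and at 4.07 TPM. Of the 46 Smarca2 transcripts, 6 stood at 1 TPM or more in all libraries in the gene-table set and 13 in the read-based set. Smarcd2-204, a retained-intron model of 621 bases, was at 1.28 ± 0.515 TPM in the one set and at 8.06 TPM in the other, where it was the leading Smarcd2 transcript. Opposite Smarca2 the annotation holds 2 antisense genes, Gm20616 at 0.677 ± 0.201 TPM and 4931403E22Rik at 1.02 ± 0.465 TPM, with 9 counts or fewer per library each. Opposite Arid1b lies the processed pseudogene Gm15599, at 3.12 ± 0.570 TPM.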
